A study of Mus musculus with 12 samples.

Results

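The transcripts of the mitochondrial genome were taken as every gene whose GENCODE M21 symbol starts with mt-, 37 of 55266 annotated genes. They comprise 13 mRNAs, 2 rRNAs and 22 tRNAs, each annotated with 1 transcript. RNA came from E14 mouse embryonic stem cells (mESC) of genotype 2C::3xtbGFP, in which the green fluorescent protein tbGFP marks rare cells that express genes of the 2-cell embryo. All groups carried this reporter, were cultured with serum and LIF and were plated without the 2 kinase inhibitors of the expansion medium. Cells were sorted by fluorescence into tbGFP-positive and tbGFP-negative cells after 0, 6 or 24 h with sorbitol. This sugar alcohol makes the medium hyperosmotic. Each of these 6 groups had 2 libraries. The labels do not say whether the libraries of a group came from separate cultures, so p-values only reflect how far these libraries spread. The labels give the same length of culture for all groups, do not say whether the time in sorbitol fell within it, and name no unexposed group at 6 or 24 h, so a difference between times cannot be told apart from one in time in culture. The sort followed the exposure, so tbGFP-positive cells at 24 h need not descend from those positive at 0 h. The question put to these transcripts was whether they differed between the sorted fractions and over the time in sorbitol.

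The mitochondrial genome is a small circular DNA held in many copies per cell. Both strands are transcribed by the polymerase POLRMT with the factors TFAM and TFB2M into long RNAs, in which tRNAs lie between most mRNAs and rRNAs and are cut out to free them. The mRNAs encode core subunits of respiratory complexes I (Nd genes), III (Cytb) and IV (Co genes) and of ATP synthase (Atp genes). The rRNAs form the core of the mitochondrial ribosome that translates them. Pieces of mitochondrial DNA have also entered the nuclear chromosomes, where near-identical copies are annotated as pseudogenes.

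The sequences behind the measurements are shown first, because the length and the uniqueness of a mitochondrial gene can bear on its counts. Whether they did so here was not tested. All are GENCODE M21 transcripts on GRCm38, written 5′ to 3′ along the transcript. The first set shows the size of a tRNA: mt-Tp (chrM:15356-15422, minus strand), the tRNA for proline and the only one counted in every library, and 2 that were never counted, mt-Tf (chrM:1-68, plus strand) for phenylalanine and mt-Tt (chrM:15289-15355, plus strand) for threonine, which lies directly beside mt-Tp. Capitals mark the anticodon.
mt-Tp: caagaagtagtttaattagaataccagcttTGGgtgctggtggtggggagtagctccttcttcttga
mt-Tf: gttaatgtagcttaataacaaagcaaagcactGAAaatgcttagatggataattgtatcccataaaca
mt-Tt: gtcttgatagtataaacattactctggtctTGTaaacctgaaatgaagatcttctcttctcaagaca

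The second set shows how alike a mitochondrial gene and its nuclear copies are, at the place where the chromosome 1 copy of mt-Co1 begins. It gives 100 bases of mt-Co1 (chrM:6381-6480, plus strand) with the same stretch of the pseudogenes Gm29216 (chr1:24616098-24616197, minus strand) and Gm13340 (chr2:22588495-22588594, minus strand). Capitals mark the bases that differ from mt-Co1, 6 in Gm29216 and 3 in Gm13340.
mt-Co1: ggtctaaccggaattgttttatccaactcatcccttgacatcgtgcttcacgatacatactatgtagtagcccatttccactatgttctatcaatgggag
Gm29216: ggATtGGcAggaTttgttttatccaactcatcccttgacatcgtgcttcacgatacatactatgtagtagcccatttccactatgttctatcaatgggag
Gm13340: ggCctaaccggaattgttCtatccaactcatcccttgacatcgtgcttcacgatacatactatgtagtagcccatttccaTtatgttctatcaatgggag

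The third set shows the bases that mitochondrial genes share with each other. The end of mt-Atp8 (chrM:7900-7969, plus strand) is also the start of mt-Atp6, and the last bases of mt-Nd5 (chrM:13516-13565, plus strand) lie opposite the last bases of mt-Nd6 (chrM:13552-13601, minus strand). Capitals mark the shared part, 43 bases for mt-Atp8 and 14 for the pair mt-Nd5 and mt-Nd6.
mt-Atp8: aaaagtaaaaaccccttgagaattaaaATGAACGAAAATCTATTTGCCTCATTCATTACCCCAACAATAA
mt-Nd5: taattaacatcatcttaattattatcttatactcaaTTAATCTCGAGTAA
mt-Nd6: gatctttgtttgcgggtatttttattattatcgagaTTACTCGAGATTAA

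The 12 libraries held 2306870 to 7900178 counts. As a sum, the markers of the labelled cell type stood out. The 10 embryonic stem cell markers summed to 6313 to 9083 CPM, counts scaled to 1000000 matched to genes. The 10 fibroblast markers, of which 2 had no count in any library, summed to 4.09 to 25.4 CPM. The stem cell markers were uneven: Dppa5a alone had 3750 to 5340 CPM, while Nanog, Zfp42, Esrrb and Tbx3 had at most 38.2, 13.9, 22.6 and 48.5 CPM. Primitive endoderm and trophectoderm markers, 8 each, summed to 2.62 to 14.8 CPM and 13.03 to 33.1 CPM. All 14 genes of a 2-cell list passed the test as higher in tbGFP-positive cells at each time, and they summed to 34000 to 56884 CPM there, against 20.4 to 1145 CPM in tbGFP-negative cells. Both tbGFP-positive libraries at 6 h stood apart, with 17545 and 17445 genes detected against 18600 to 26069 in the other 10. In RNA from whole sorted samples, fewer cells of a type and less RNA per cell cannot be told apart.

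Mitochondrial transcripts made up 3.83% to 7.03% of the counts matched to genes. The classes were very unequal. The 13 mRNAs held 3.23% to 5.08% of the counts, the 2 rRNAs 0.365% to 2.44%, and the 22 tRNAs 0.0009% to 0.0065%. The kit used, TruSeq Stranded Gold Total RNA, is of a type that depletes ribosomal RNA before library preparation, so the rRNA share is what was left after that step and not the level in the cells.

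Of the 22 tRNAs, 20 had no count in any library. A count of 0 allows up to 3 counts, which corresponds to 0.38 CPM in the deepest library and 1.3 CPM in the shallowest, and covers counting error only. The tRNA for glycine, mt-Tg, had 1 count in 1 library. The tRNA for proline, mt-Tp, was counted in all 12 libraries, with a lowest value of 8.99 CPM, a median of 21.7 CPM and a highest of 64.5 CPM. All 22 tRNA genes are 59 to 75 bases long, and 18 of them have another annotated gene within 5 bases on both sides. The 4 that do not are mt-Tf, mt-Tn, mt-Tc and mt-Tp. The gene mt-Tp is the last annotated one on chrM, transcribed from the other strand than its neighbour mt-Tt, and precedes the control region. Whether the counts assigned to mt-Tp come from the tRNA, from its unprocessed precursor or from RNA of the opposite strand cannot be told apart, since the strand setting of the counting is not given in the sources used here.

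Per kb of gene length, which allows levels of different genes to be set side by side, the mitochondrial genes spanned more than 4 orders of magnitude. Cytochrome c oxidase subunit 1, mt-Co1, the catalytic subunit of complex IV, ranked first in every library, with a median of 21040 CPM per kb. It was followed by the large rRNA mt-Rnr2 at 7608 CPM per kb, the complex I subunit mt-Nd1 at 2838, and cytochrome b, mt-Cytb, the only complex III subunit encoded in mitochondria, at 2492. The small rRNA mt-Rnr1 had a median of 1066 CPM per kb. The complex I subunits mt-Nd5, mt-Nd2 and mt-Nd4 followed at 493, 440 and 363 CPM per kb, and mt-Tp at 323. The only light-strand mRNA, mt-Nd6, had 204 CPM per kb, below all heavy-strand mRNAs named so far. The remaining complex IV subunits had far less than mt-Co1, with 175 CPM per kb for mt-Co2 and 124 for mt-Co3. The ATP synthase subunit mt-Atp6 had 28.9 and the complex I subunit mt-Nd3 had 15.3 CPM per kb. At the end of the order, mt-Nd4l with 1.57 and mt-Atp8 with 1.41 CPM per kb had at most 10 and 5 counts in a library, and were not tested. Within a library, neighbours in this order kept their places to different degrees. The levels of mt-Rnr2 and mt-Nd1 stood in the order given in all 12 libraries, and those of mt-Nd5 and mt-Nd2, and of mt-Co2 and mt-Co3, in 11. In contrast mt-Nd1 was above mt-Cytb in 7 of 12 libraries, mt-Nd2 above mt-Nd4 and mt-Nd4 above mt-Tp in 8, mt-Nd6 above mt-Co2 in 9, and mt-Nd4l above mt-Atp8 in 6, so these pairs exchanged places among libraries.

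**Figure D1:**
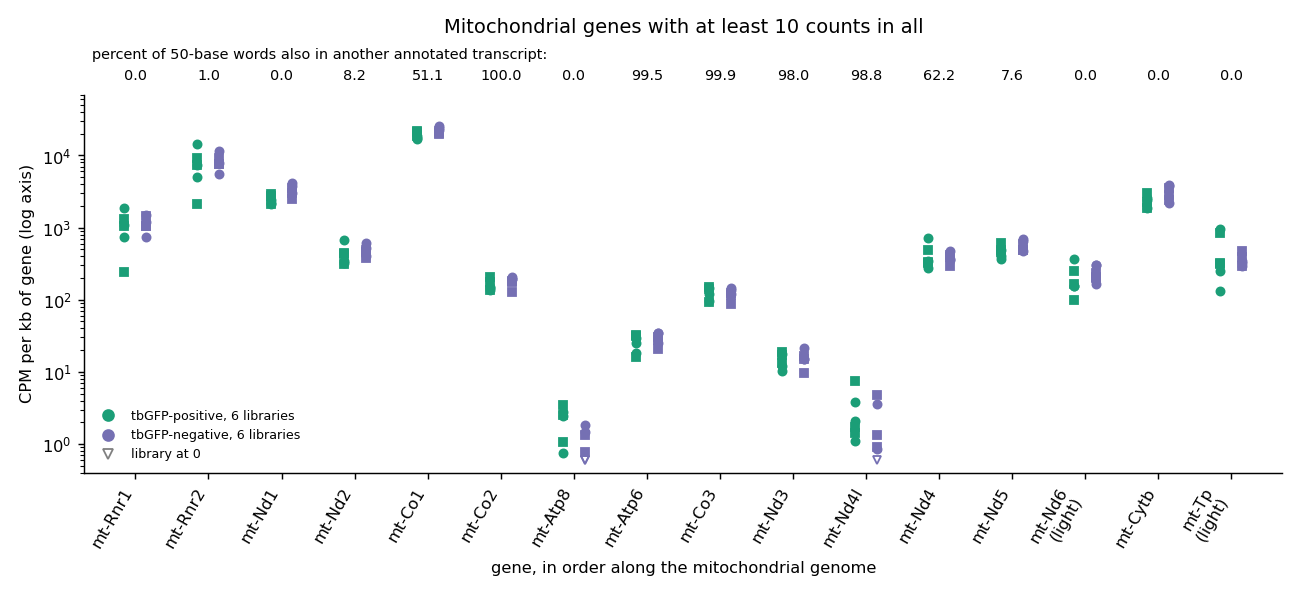
CPM per kb of gene (log axis) for the 16 mitochondrial genes with at least 10 counts in all, in genome order, 6 tbGFP-positive and 6 tbGFP-negative libraries each; open triangles are libraries at 0, circles and squares are replicates 1 and 2. The numbers above give the percent of each gene's 50-base words that also occur in another annotated transcript, and the run from mt-Co2 to mt-Nd4l, with low levels, has the highest percentages except for mt-Atp8 at 0.0.

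Within a library, mt-Co1 alone held 76.7% to 82.4% of the mitochondrial mRNA counts. The 2 rRNAs stayed within a narrow ratio: mt-Rnr2 had 6.40 to 8.77 times the level of mt-Rnr1 per kb, although both varied strongly over libraries. The light-strand mRNA mt-Nd6 had 20.7% to 74.3% of the level per kb of mt-Nd5, which ends at the same place on the other strand. Both ends of that range came from tbGFP-positive cells at 6 h, replicate 2 and replicate 1, and the other 10 libraries lay between 34.7% and 45.9%.

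The low rank of the genes from mt-Co2 to mt-Nd4l went with a lack of unique sequence. Cut into words of 50 bases, all words of mt-Co2 (100.0%), 99.9% of those of mt-Co3, 99.5% of mt-Atp6, 98.8% of mt-Nd4l and 98.0% of mt-Nd3 also occurred in another annotated transcript on either strand. The share was 62.2% for mt-Nd4, 51.1% for mt-Co1, 8.2% for mt-Nd2, 7.6% for mt-Nd5 and 1.0% for mt-Rnr2. No word of mt-Nd1, mt-Cytb, mt-Nd6, mt-Rnr1, mt-Atp8 or any tRNA was shared. The level of mt-Atp8 was thus low without shared words. It lies between mt-Co2 and mt-Atp6, is 204 bases long and overlaps mt-Atp6 by the 43 bases shown above.

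Most of the shared words lie in 7 unprocessed pseudogenes that stand side by side at chr1:24611535-24616197 on the minus strand, a stretch of 4663 bases. Without gaps, the copies Gm28661 of mt-Co2 and Gm10925 of mt-Atp6 matched the mitochondrial gene at 100% of 681 and 678 bases. The copy of mt-Co1, Gm29216, differed from mt-Co1 only in its first 13 bases, as the lines above show. From chrM:6394-6872 it was identical over 479 bases. The chromosome 2 copy Gm13340 spans the whole length of mt-Co1 with 97.6% identity, 37 differences in 1545 bases.

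The pseudogene copies had more counts than the mitochondrial originals in all 12 libraries for mt-Co2, mt-Atp6, mt-Nd3 and mt-Nd4l, and in 11 of 12 for mt-Co3. For mt-Co2 the copy Gm28661 had a median of 249 CPM and a range of 145 to 381 CPM, against a median of 119.9 CPM and a range of 86.3 to 143 CPM for mt-Co2 itself. For mt-Atp6 the copy had a median of 39.0 CPM and the gene 19.7 CPM, for mt-Nd3 24.2 and 5.31 CPM, and for mt-Co3 122 and 96.8 CPM. For mt-Co1, most of which the chromosome 1 copy lacks, that copy had a median of 343 CPM, 1.00% of the sum of both. For mt-Nd4, with 62.2% of its words shared, the copy Gm28439 had a median of 3.41 CPM, against 500.1 CPM for the gene. How reads that fit several places were counted is not given in the sources used here. The counts of mt-Co2, mt-Atp6, mt-Co3, mt-Nd3 and mt-Nd4l are therefore uncertain as levels, and which of the 2 places their reads came from cannot be told apart. This holds in part for mt-Nd4 and mt-Co1 too, with 62.2% and 51.1% of their words shared.

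**Figure D2:**
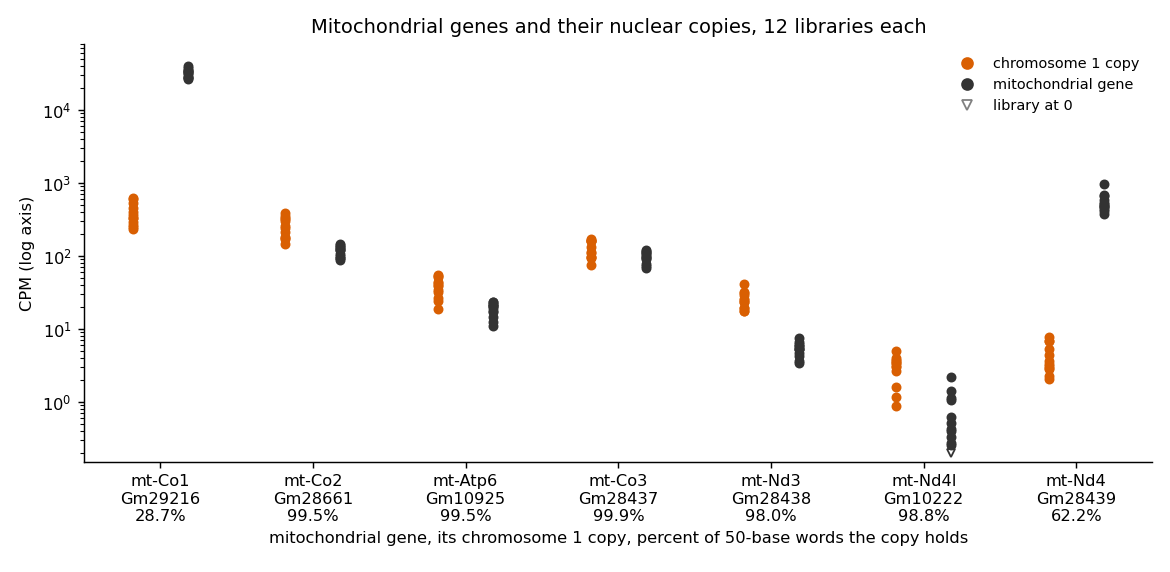
CPM (log axis) of 7 mitochondrial genes and of their annotated copies on chromosome 1, 12 libraries each, with the percent of the gene's 50-base words that the copy holds; open triangles are libraries at 0. The copies lie above the genes for mt-Co2, mt-Atp6, mt-Nd3 and mt-Nd4l, and 2 orders of magnitude below for mt-Co1 and mt-Nd4.

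The share of counts from mitochondrial mRNAs averaged 3.84% ± 0.659 in tbGFP-positive cells at 0 h, against 4.61% ± 0.343 in tbGFP-negative cells (SD, n = 2 each, as for all group values here). It was 3.58% ± 0.165 in tbGFP-positive and 4.46% ± 0.869 in tbGFP-negative cells at 6 h, and 3.64% ± 0.575 in tbGFP-positive and 4.11% ± 0.192 in tbGFP-negative cells at 24 h. The mean was lower in tbGFP-positive cells at each time. The 2 groups did not overlap at 0 h, where positive libraries had 3.37% and 4.31% and negative ones 4.86% and 4.37%, or at 6 h, where positive libraries had 3.69% and 3.46% and negative ones 5.08% and 3.85%. They overlapped at 24 h, with 3.23% and 4.05% in positive and 4.24% and 3.97% in negative libraries. A share depends on everything else in the library, and the 2-cell genes that mark the positive fraction summed to 34000 to 56884 CPM there, the same order as the mitochondrial transcripts. Their part in the lower share was not tested. Over protein-coding genes alone the groups overlapped at 0 h, with shares of 4.64% and 5.67% in positive and 6.23% and 5.41% in negative libraries, and at 24 h. The groups at 6 h did not overlap over any of the 4 totals tried, with 5.01% and 4.58% in positive and 6.71% and 5.08% in negative libraries over protein-coding genes. No test was made of the shares.

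**Figure D3:**
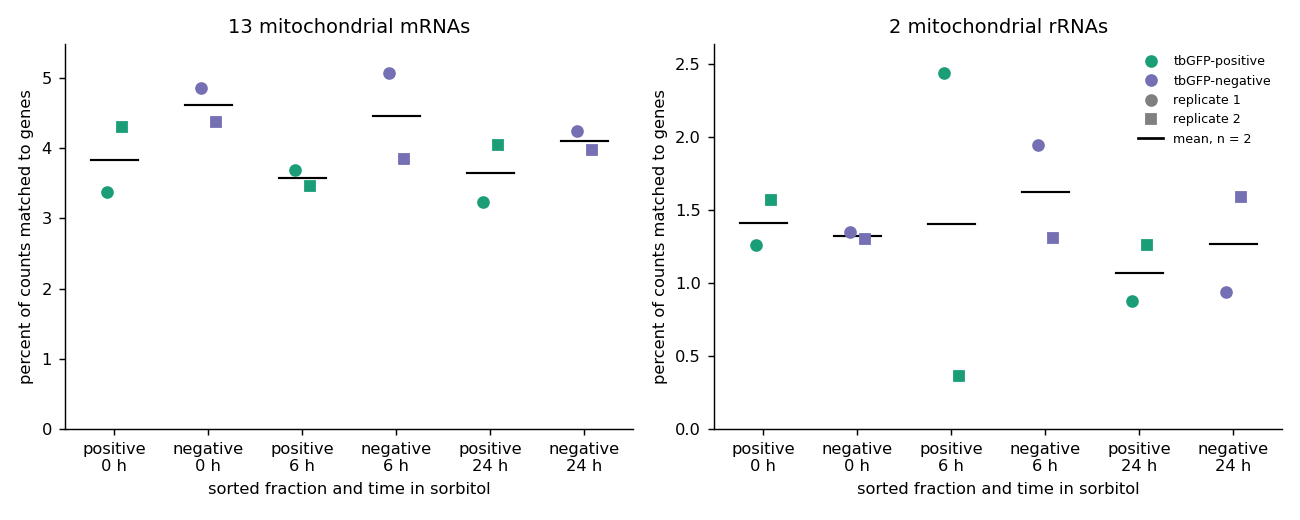
Percent of counts matched to genes that came from the 13 mitochondrial mRNAs (left) and the 2 mitochondrial rRNAs (right) in each library, by sorted fraction and hours in sorbitol, with the mean of 2 libraries as a line. The mRNA share ran from 3.23% to 5.08%, and the rRNA share had both its highest value, 2.44%, and its lowest, 0.365%, in tbGFP-positive cells at 6 h.

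The rRNA share did not follow the mRNA share. It was 1.26% and 1.57% in tbGFP-positive and 1.35% and 1.30% in tbGFP-negative cells at 0 h. At 6 h it was 2.44% and 0.365% in tbGFP-positive cells, against 1.95% and 1.31% in tbGFP-negative cells. At 24 h it was 0.877% and 1.26% in tbGFP-positive cells, against 0.943% and 1.59% in tbGFP-negative cells. The fractions overlapped at each time. The tRNA share, nearly all of it mt-Tp, averaged 0.00427% ± 0.00309 in tbGFP-positive and 0.00207% ± 0.00017 in tbGFP-negative cells at 6 h, with a spread within the positive group larger than this difference.

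The libraries of tbGFP-positive cells at 6 h differed from each other by up to 7.68-fold over the 14 members with enough counts to be tested, against at most 3.45-fold within any other group. For mt-Rnr1 they had 1806 and 235 CPM, and for mt-Rnr2 22624 and 3415 CPM, a 6.63-fold difference. In the other 10 libraries mt-Rnr1 ran from 702 to 1432 CPM and mt-Rnr2 from 8072 to 18027 CPM, so the 2 libraries lay above and below all others. The light-strand genes differed too, with 192 and 52.3 CPM for mt-Nd6 and 64.5 and 20.8 CPM for mt-Tp. Among heavy-strand mRNAs, mt-Nd2 had 706 and 325 CPM and mt-Nd4 had 978 and 465 CPM. In contrast mt-Co1 had 28616 and 28490 CPM, mt-Co2 94.2 and 93.1 CPM and mt-Nd5 906 and 889 CPM, almost equal in both. In replicate 1 the counts of mt-Nd4 were 108% of those of mt-Nd5 and the counts of mt-Nd2 were 30.2% of those of mt-Nd1. In the other 11 libraries these ratios were 43.0% to 66.2% and 14.7% to 17.1%. Comparisons of mitochondrial genes that rest on tbGFP-positive cells at 6 h are therefore also given without each of these libraries.

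Between the fractions no mitochondrial gene passed the main test at any time. The test was edgeR's quasi-likelihood test over 19384 genes with Benjamini-Hochberg adjustment and a threshold of 0.05, for 14 of the 37 members that had at least 10 counts in at least 2 libraries: 11 mRNAs, both rRNAs and mt-Tp. At 0 h 0 of 14 members were called, while 7.11% of all tested genes were, and 0 had an unadjusted p under 0.05. At 24 h 0 of 14 were called against 5.46% of all genes, with 0 under an unadjusted p of 0.05. At 6 h 0 of 14 were called against 12.1% of all genes, with 3 under an unadjusted p of 0.05. DESeq2 also called 0 at each of these times. With only the groups compared, edgeR called mt-Rnr2 higher in tbGFP-positive cells at 0 h, with a log2 fold change of 0.52 (adjusted p = 0.0366). Its SE was 0.14 there and 0.76 in the main test, which takes the spread from all 12 libraries. At 24 h such a fit called mt-Co1 higher, with 0.31 (adjusted p = 0.0409). The share of all genes called in these fits is not given here.

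The direction of the fraction difference depended on the scaling. With TMM factors, which were 0.860 to 0.956 in tbGFP-positive and 0.910 to 1.23 in tbGFP-negative libraries, the median log2 fold change of tbGFP-positive against tbGFP-negative cells over the 14 members was 0.30 at 0 h and 0.20 at 24 h, with 11 and 13 members above 0. With library totals alone it was -0.14 at 0 h and -0.23 at 24 h. The median of all 19384 genes also shifted. It was 0.00 at 0 h and -0.05 at 24 h with TMM, and -0.41 and -0.48 with library totals. Relative to the median of all genes, the median of the members was 0.26 to 0.30 higher at 0 h and 0.25 higher at 24 h under each of the 5 scalings tried. At 6 h the median of the members was -0.20 with TMM, and relative to that of all genes it lay between -0.17 and -0.12 under these scalings. A change of scaling shifts the members and all genes by nearly the same amount. The relative values were therefore bound to be alike under each scaling, and their likeness is no test of a fraction difference.

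By role, the mitochondrial mRNAs at 0 h ran from -0.14 for mt-Nd1 to 0.40 for mt-Atp6 on the log2 scale, and at 24 h from 0.05 for mt-Nd3 to 0.45 for mt-Co3. The genes of complex IV had log2 fold changes of 0.22 (mt-Co1), 0.24 (mt-Co2) and 0.37 (mt-Co3) at 0 h. For mt-Rnr1 and mt-Rnr2 they were 0.52 and 0.53 at 0 h and 0.13 and 0.18 at 24 h. At 6 h mt-Cytb came nearest to the threshold, with 2950 and 2118 CPM in tbGFP-positive cells, against 4318 and 3198 CPM in tbGFP-negative cells. The groups did not overlap, and the log2 fold change was -0.55 ± 0.18 (SE) with an adjusted p of 0.0574 by edgeR. For mt-Nd4 the 6 h values were 978 and 465 CPM in tbGFP-positive cells, against 512 and 407 CPM in tbGFP-negative cells, which overlapped, with a log2 fold change of 0.66 ± 0.26 (edgeR adjusted p = 0.109).

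The fraction differences at 6 h rested on the choice of library and scaling. Without replicate 1 of tbGFP-positive cells at 6 h, log2 fold changes were -2.38 for mt-Rnr1, -2.14 for mt-Rnr2, -1.33 for mt-Nd6 and -0.83 for mt-Cytb. Without replicate 2, mt-Nd4 had 1.06. Replicate 1, kept in that fit, had 1943 TMM-scaled CPM of mt-Rnr1, above the tbGFP-negative libraries at 6 h with 1574 and 1054. For mt-Rnr2 it had 24342, above 19817 and 12591, so the rRNA difference changed direction with the library kept. Without replicate 2 of tbGFP-negative cells at 6 h, mt-Nd1, mt-Co1 and mt-Cytb had -0.77, -0.56 and -0.83. These fits leave a lone library in a group, which is assumed to vary like the other groups. With upper-quartile factors edgeR called mt-Nd1 (-0.76), mt-Co1 (-0.63) and mt-Cytb (-0.90) lower, while 1182 of all genes were called higher and 2454 lower. The genes given for these fits were named after their values were seen.

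**Figure D4:**
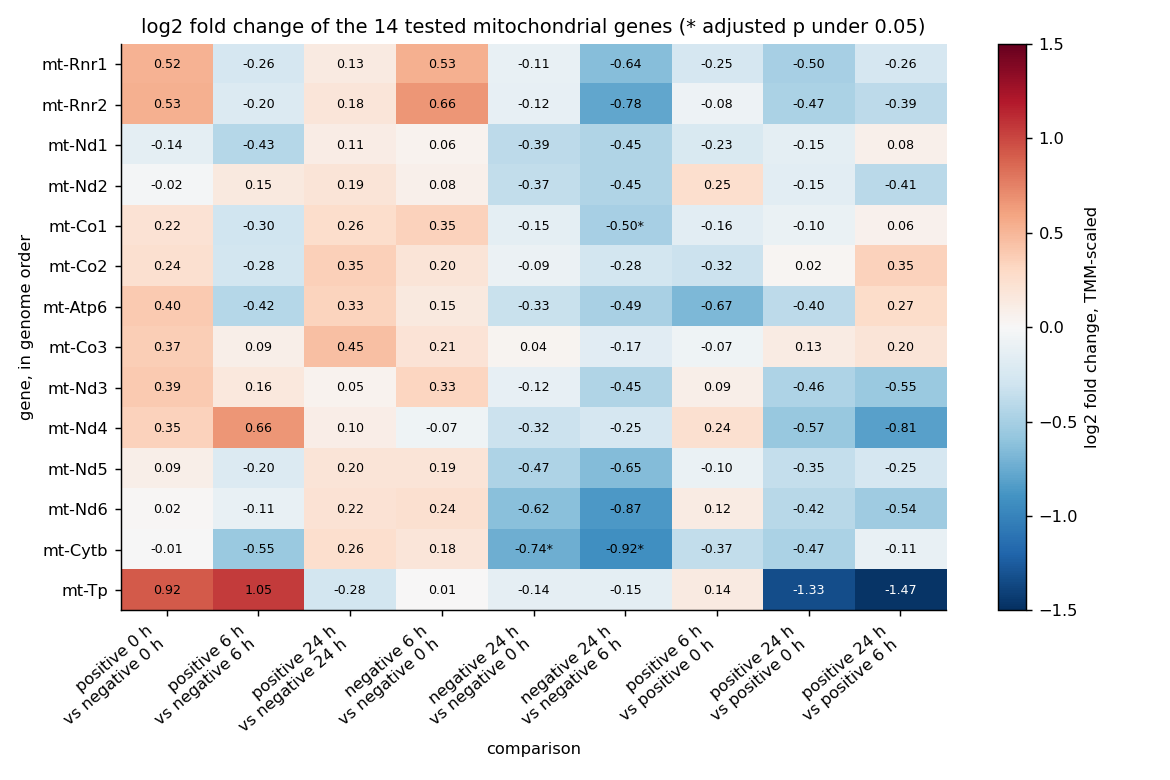
Log2 fold change (TMM-scaled, first group over second) of the 14 tested mitochondrial genes in 9 comparisons, colour and number giving the same value and a star marking an adjusted p under 0.05. The stars stand at mt-Cytb and mt-Co1 in tbGFP-negative cells at 24 h, where all 14 genes are below 0 against 6 h.

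Over the time in sorbitol, mt-Cytb fell in tbGFP-negative cells. It had 4419 and 4038 CPM at 0 h, 4318 and 3198 CPM at 6 h, and 2537 and 2740 CPM at 24 h. The libraries at 24 h lay below all 4 of the earlier ones. Scaled by TMM, mt-Cytb averaged 2142 ± 110 CPM at 24 h, against 3571 ± 310 at 0 h and 4043 ± 995 at 6 h. The log2 fold change at 24 h was -0.74 ± 0.18 against 0 h (edgeR adjusted p = 0.0294) and -0.92 ± 0.18 against 6 h (edgeR adjusted p = 0.00498). These comparisons share the libraries at 24 h. Against 0 h mt-Cytb was the 1 member of 14 called, while 1.29% of all genes were called lower and 3.99% in either direction. The call against 0 h held in 15 of 20 alternative fits, with adjusted p-values up to 0.282, and was lost without either library at 0 h, without either library at 24 h, and without replicate 1 of tbGFP-positive cells at 24 h. Its log2 fold change stayed between -0.95 and -0.65.

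Against 6 h, 2 of 14 members were called lower at 24 h in tbGFP-negative cells, mt-Cytb and mt-Co1, while 4.3% of all genes were called lower and 7.91% in either direction. With library totals alone, the calls over all genes were 1389 higher and 308 lower, against 701 higher and 833 lower with TMM. By library totals mt-Co1 had 34865 and 31817 CPM at 24 h, against 40174 and 30921 CPM at 6 h, which overlap. Scaled by TMM it had 28359 and 25778 CPM at 24 h, against 44162 and 32290 CPM at 6 h, which do not. The log2 fold change of mt-Co1 was -0.50 ± 0.14 (edgeR adjusted p = 0.0458) with TMM and -0.09 (edgeR adjusted p = 0.755) with library totals alone, so the call for mt-Co1 rested on the scaling. It held in 12 of 20 alternative fits. For mt-Cytb the call against 6 h held in 17 of 20, with adjusted p-values up to 0.1001. It was lost with library totals alone, with a log2 fold change of -0.51, and without replicate 1 of tbGFP-negative cells at 6 h (-0.70) or at 24 h (-0.93). In these 3 fits mt-Co1 was not called either.

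The other members did not pass the test in tbGFP-negative cells. At 24 h against 6 h in tbGFP-negative cells, all 14 had a negative log2 fold change with TMM, and the median was -0.47, while the median over all genes was 0.16. At 24 h against 0 h the median was -0.23 with 13 of 14 negative, while the median over all genes was 0.23. Relative to that median the members were between -0.47 and -0.46 against 0 h and between -0.64 and -0.62 against 6 h under each of the 5 scalings. That likeness was fixed in advance, because a change of scaling shifts the members and all genes nearly alike. Without the subtraction, the member median with library totals alone was -0.18 against 0 h and -0.06 against 6 h. With upper-quartile factors it was -0.42 and -0.60. By library totals the complex I subunit mt-Nd5 had 873 and 892 CPM at 24 h, against 1189 and 907 CPM at 6 h. With TMM its log2 fold change was -0.65 ± 0.19 (edgeR adjusted p = 0.0516). DESeq2 called mt-Nd5 lower too, with -0.61 (adjusted p = 0.0374), and did not call mt-Co1. The light-strand mt-Nd6 had 86.3 and 105 CPM at 24 h, against 155 and 107 CPM at 6 h, with a log2 fold change of -0.87 ± 0.41 (edgeR adjusted p = 0.252). A fit without both tbGFP-positive libraries at 6 h was also made. At 24 h against 6 h it gave -0.52 for mt-Nd2, -0.57 for mt-Co1, -0.72 for mt-Nd5, -0.94 for mt-Nd6 and -0.99 for mt-Cytb in tbGFP-negative cells. Against 0 h it gave -0.58 for mt-Nd5, -0.73 for mt-Nd6 and -0.85 for mt-Cytb. These were the members called, and the share of all genes called in that fit is not given here. In the tbGFP-negative libraries the 14 genes of the 2-cell list had a higher sum at 24 h. It was 1145 and 1084 CPM, against 68.6 and 56.5 CPM at 6 h and 20.4 and 48.1 CPM at 0 h. Whether that bears on the mitochondrial transcripts was not tested.

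A ratio within the mitochondrial genes needs no scaling between libraries, though mt-Co1 shares 51.1% of its words with other transcripts. The counts of mt-Cytb relative to those of mt-Co1 were looked at after the calls for both were known, and get no test. In tbGFP-positive cells both libraries at 0 h had 10.2%, those at 6 h had 10.3% and 7.43%, and those at 24 h had 7.99% and 7.78%. In tbGFP-negative cells the libraries at 0 h had 11.9% and 11.97%, those at 6 h had 10.7% and 10.3%, and those at 24 h had 7.28% and 8.61%. In both fractions the libraries at 24 h lay below both libraries at 0 h. The other unique long mRNA, mt-Nd1, was at 7.78% and 7.84% of mt-Co1 in tbGFP-positive cells at 24 h, against 7.73% and 8.29% at 0 h, which overlap. In tbGFP-negative cells it was at 8.30% and 9.13% at 24 h, against 10.5% and 10.1% at 0 h, which do not.

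**Figure D5:**
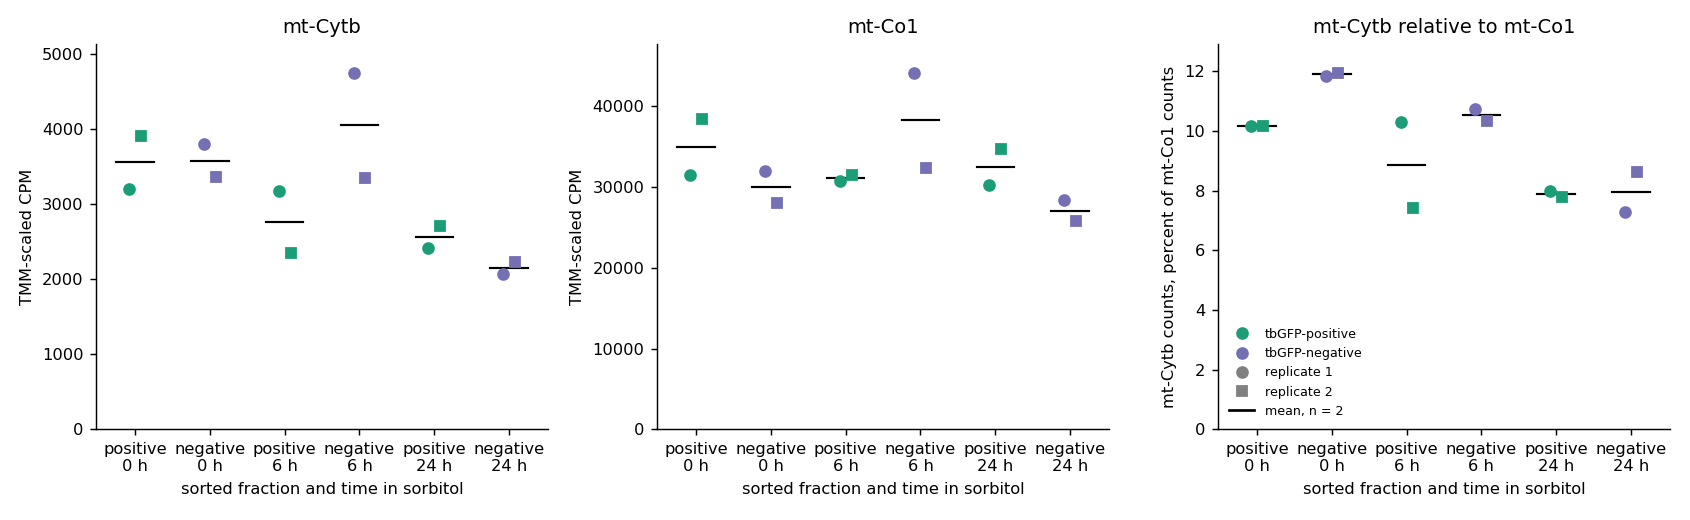
TMM-scaled CPM of mt-Cytb and mt-Co1 and the counts of mt-Cytb as a percent of those of mt-Co1, in each library by sorted fraction and hours in sorbitol, with the mean of 2 libraries as a line. The percentage was 7.28% to 8.61% in the 4 libraries at 24 h, against 10.2% to 11.97% in the 4 at 0 h.

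At 6 h against 0 h in the tbGFP-negative fraction, 0 of 14 members were called while 4.44% of all genes were, with 1 under an unadjusted p of 0.05 by edgeR, and DESeq2 called 0. The median log2 fold change was 0.19 with TMM and -0.16 with library totals alone. By library totals the rRNA mt-Rnr2 had 18027 and 12057 CPM at 6 h, against 12327 and 12016 CPM at 0 h, which overlap. With TMM its log2 fold change was 0.66 ± 0.76 (edgeR adjusted p = 0.765).

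In tbGFP-positive cells no member passed over time. At 6 h against 0 h 0 of 14 were called by edgeR while 5.9% of all genes were, with 0 under an unadjusted p of 0.05 and 0 called by DESeq2. Without replicate 1 at 6 h, log2 fold changes at 6 h against 0 h were -2.42 for mt-Rnr1, -2.07 for mt-Rnr2, -1.16 for mt-Nd6 and -0.70 for mt-Cytb. Without replicate 2 they were 0.61 for mt-Nd2 and 0.59 for mt-Nd4. Replicate 1, kept in that fit, had 1943 TMM-scaled CPM of mt-Rnr1, above both libraries at 0 h with 1193 and 1417. For mt-Rnr2 it had 24342, above 13486 and 16225, so the rRNA difference changed direction with the library kept. Each of these fits left a lone library at 6 h. At 24 h against 0 h 0 of 14 were called while 0.552% of all genes were, with 3 under an unadjusted p of 0.05 and 0 called by DESeq2. At 24 h against 6 h 0 of 14 were called while 8.8% of all genes were, with 2 under an unadjusted p of 0.05, and DESeq2 called 1, mt-Nd4, lower at 24 h with a log2 fold change of -0.85 (adjusted p = 0.0292). By edgeR mt-Nd4 had 379 and 439 CPM at 24 h, against 978 and 465 CPM at 6 h, with a log2 fold change of -0.81 ± 0.26 (adjusted p = 0.0658). The values at 24 h lay below both at 6 h, and the library with 978 CPM is the one with the highest rRNA share. Without that library mt-Nd4 was not called, and mt-Rnr1 had a log2 fold change of 1.87 at 24 h against 6 h. Without the other library at 6 h, log2 fold changes at 24 h were -0.81 for mt-Nd2, -1.20 for mt-Nd4, -1.16 for mt-Nd6 and -2.03 for mt-Tp. The library kept in that fit had 1943 TMM-scaled CPM of mt-Rnr1, above the 800 and 1042 at 24 h.

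For mt-Cytb, tbGFP-positive cells had 2753 and 3470 CPM at 0 h, 2950 and 2118 CPM at 6 h, and 2116 and 2583 CPM at 24 h. The libraries at 24 h lay below those at 0 h, and the log2 fold change was -0.47 without passing the test. Without replicate 1 of tbGFP-positive cells at 6 h, the log2 fold change of mt-Cytb at 24 h against 0 h was -0.52, and without replicate 2 it was -0.52 too. In both fits that of mt-Nd4 was -0.61. For mt-Tp the log2 fold change at 24 h against 0 h was -1.33, from 8.99 and 21.6 CPM at 24 h and 16.6 and 57.1 CPM at 0 h, which overlap.

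The fraction difference did not pass a test of change over time. The interaction that set the fraction difference at 6 h against that at 0 h called 0 of 14 members and 0.17% of all genes by edgeR, with 2 members under an unadjusted p of 0.05. For 24 h against 0 h it called 0 of 14 and 0.97% of all genes, with 0 under an unadjusted p of 0.05. DESeq2 called 0 in both. So the calls for mt-Cytb in tbGFP-negative cells do not show that its course differed between the fractions. Without replicate 1 of tbGFP-positive cells at 6 h, the 6 h interaction was -2.91 for mt-Rnr1, -2.69 for mt-Rnr2, -1.36 for mt-Nd6 and -0.83 for mt-Cytb on the log2 scale. That fit left a lone library in the group.

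Most proteins that build, transcribe and translate the mitochondrial genome are encoded in the nucleus. Of 180 tested genes on 10 such lists (the nuclear subunits of complexes I to V, mitochondrial ribosomal proteins, transcription and replication, RNA processing and decay, tRNA and rRNA modification, and biogenesis regulators), 0 were called between the fractions at 0 h or 24 h by edgeR. An unadjusted p under 0.05 was found for 8 at 0 h and 6 at 24 h, and DESeq2 called 0 at 0 h and 2 lower at 24 h. Their median log2 fold change of tbGFP-positive against tbGFP-negative cells was -0.14 at 0 h, -0.30 at 6 h and -0.22 at 24 h, where the median over all genes was 0.00, -0.07 and -0.05. Between the fractions at 6 h, edgeR called 3 of them higher and 13 lower in the positive one, 8.89% of the lists, while 12.1% of all genes were called. Over time in tbGFP-negative cells it called 4 higher and 2 lower at 6 h against 0 h (3.33%, while 4.44% of all genes were called), 2 higher and 0 lower at 24 h against 0 h (1.11%, against 3.99%), and 7 higher and 9 lower at 24 h against 6 h (8.89%, against 7.91%). In tbGFP-positive cells it called 3 higher and 10 lower at 6 h against 0 h (7.22%, against 5.9% of all genes), 1 higher and 0 lower at 24 h against 0 h (0.556%, against 0.552%), and 15 higher and 1 lower at 24 h against 6 h (8.89%, against 8.8%). Taken over both directions, these shares lay near or below those of all genes. These counts rested on the libraries of tbGFP-positive cells at 6 h. An alternative chosen after seeing the data left each of them out. Between the fractions at 6 h it then called 2 of the 180 higher and 37 lower in the positive one without replicate 1 (21.7%, while 22.3% of all genes were called), and 12 higher and 42 lower without replicate 2 (30%, against 28.4%). In tbGFP-positive cells at 6 h against 0 h it called 9 higher and 36 lower without replicate 1 (25%, against 21.1%), and 10 higher and 26 lower without replicate 2 (20%, against 20.1%). Unlike the mitochondrial genes, nuclear genes can have several transcripts, and how reads common to them were counted is not given in the sources used here.

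The transcription factor Yy1, listed for its part in mitochondrial gene regulation, rose in both fractions at 6 h. In tbGFP-positive cells it averaged 565 ± 141 CPM at 6 h, against 223 ± 20.5 at 0 h, a log2 fold change of 1.28 ± 0.18 (edgeR adjusted p = 0.00152). In tbGFP-negative cells it averaged 810 ± 54.5 CPM at 6 h, against 237 ± 6.25 at 0 h, a log2 fold change of 2.12 ± 0.18 (edgeR adjusted p = 9.97e-06). At 24 h against 6 h it fell, with log2 fold changes of -1.21 in tbGFP-positive and -1.77 in tbGFP-negative cells. Among the biogenesis regulators, whose 6 tested genes include Yy1, 1 was called higher at 6 h in each fraction.

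Ssbp1, the mitochondrial single-stranded DNA-binding protein used in replication, rose at 24 h in tbGFP-negative cells, with 63.4 ± 3.18 CPM against 20.9 ± 1.40 at 0 h and a log2 fold change of 1.54 ± 0.31 (edgeR adjusted p = 0.00824). Trmt10c, a subunit of the mitochondrial RNase P that cuts the 5′ ends of tRNAs, rose at 6 h there, with 278 ± 28.4 CPM against 211 ± 20.5 at 0 h and a log2 fold change of 0.75 ± 0.17 (edgeR adjusted p = 0.0228). Trmt5, a tRNA methyltransferase, fell at 6 h in tbGFP-negative cells, with 21.5 ± 0.363 CPM against 59.0 ± 1.89 at 0 h, and was higher in tbGFP-positive cells at 6 h, with 39.6 ± 7.60 CPM against 21.5 ± 0.363 in tbGFP-negative cells. That last call was lost without replicate 1 of tbGFP-positive cells at 6 h (edgeR adjusted p = 0.0628). The complex I subunits Ndufa13 and Ndufa1 fell at 24 h in tbGFP-negative cells, to 185 ± 8.22 and 106 ± 3.23 CPM, against 267 ± 25.4 and 150 ± 8.49 at 6 h. In tbGFP-positive cells Ndufa1 was higher at 6 h, with 131 and 179 CPM against 97.0 and 63.0 CPM at 0 h, a call lost without replicate 2 at 6 h (edgeR adjusted p = 0.105). Of the 30 tested complex I genes, 0 were called higher and 4 lower at 24 h against 6 h in tbGFP-negative cells, 13.3% lower while 4.3% of all genes were.

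Mitochondrial ribosomal proteins, of which 68 were tested, had 1 called higher and 5 lower at 6 h in tbGFP-positive against tbGFP-negative cells, 5 higher and 0 lower at 24 h against 6 h in tbGFP-negative cells, and 6 higher and 0 lower in the same comparison in tbGFP-positive cells. These are 8.82%, 7.35% and 8.82% of the 68, while 12.1%, 7.91% and 8.8% of all genes were called in these comparisons. In tbGFP-negative cells at 6 h Mrps6 rose, with 11.4 ± 0.181 CPM against 0.843 ± 0.0354 at 0 h, and Mrps10 fell, with 7.33 ± 1.67 CPM against 32.8 ± 10.1. At 24 h Mrps6 had 9.95 ± 5.12 CPM there, called higher than at 0 h, and Mrps10 had 42.8 ± 2.82 CPM, called higher than at 6 h together with Mrpl23 (10.3 ± 1.71 against 0.747 ± 0.627 CPM) and Mrpl33 (22.2 ± 2.77 against 5.01 ± 2.59 CPM). In tbGFP-positive cells Mrps6 had 255 counts at 6 h and 130 at 24 h, against 2 at 0 h, ratios of 119 (95% counting interval 32.7 to 990) and 51.0 (13.8 to 426), and both were called. At 6 h Mrpl17 was higher in tbGFP-positive cells, with 49.8 ± 3.27 CPM against 28.3 ± 0.679 in tbGFP-negative cells, as was the ATP synthase subunit Atp5b, with 86.8 ± 51.2 against 35.6 ± 1.80 CPM. Without replicate 1 of tbGFP-positive cells at 6 h Atp5b was not called, and without replicate 2 Mrpl17 was not.

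Several low genes were at 0 in both tbGFP-positive libraries at 6 h, the 2 with the fewest genes detected. Taking 3 counts in the 2 libraries together as the limit, the ribosomal protein Mrps18a was at least 8.52-fold lower there than in tbGFP-negative cells at 6 h and at least 25.3-fold lower than at 0 h. The methyltransferase Nsun3, which acts on a mitochondrial tRNA, was at least 12.2-fold and 10.7-fold lower in these comparisons. The ATP synthase subunit Atp5e was at least 10.4-fold lower than in tbGFP-negative cells, and the primase-polymerase Primpol at least 17.7-fold lower than at 0 h. At 24 h in tbGFP-positive cells Nsun3, Mrps18a and Mrpl4 were at least 23.1-fold, 20.2-fold and 15.1-fold higher than at 6 h. Each of these passed edgeR's test, and the part of the low number of detected genes in them was not tested.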

How the data were processed

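The deposited files give raw counts of reads per Ensembl transcript, 142446 transcripts in each of 12 libraries. HISAT2, featureCounts, DESeq2, FastQC and the genome build mm10 are named in the submitters' processing notes, without their roles, the strand setting or the handling of reads that map to several places. TruSeq Stranded Gold Total RNA libraries were made from sorted cells, per the labels' protocols.

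Transcript counts were summed per gene with GENCODE M21 (GRCm38, the assembly also called mm10), in Python 3.11.15. This matched 141536 transcripts, and the 910 that did not match held 0.0606% to 0.0903% of the counts. CPM were counts scaled to 1000000 matched to genes. Log2 fold changes by edgeR use TMM factors unless another scaling is named, so they can differ from the ratio of the CPM beside them. Of 38071 genes with counts, 19384 reached 10 counts in 2 or more libraries and entered the test. The main test was edgeR 4.0.16 (R 4.3.3), quasi-likelihood with robust dispersion, TMM factors and 6 group means over all 12 libraries, with Benjamini-Hochberg adjustment over 19384 genes and a threshold of 0.05. It gave 9 comparisons and 2 interactions. Nearest copies were found as 50-base words shared between GENCODE transcripts on either strand. Scripts were tested on simulated data.

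The design foresaw counts per gene, and the files hold them per transcript. The members and lists were chosen with earlier results of these data known. Values per library were to be printed for mt-Rnr1, mt-Rnr2, mt-Nd6, mt-Co1 and, per comparison, up to 4 mRNAs and 4 tRNAs with the largest change among those called. Those of other members were chosen after they were seen. From the nuclear lists, up to 3 genes higher and 3 lower per comparison were named by the same measure. Alternatives were DESeq2 1.42.0, other scalings, no filter, only the groups compared, a replicate block and each library left out. Leaving out each tbGFP-positive library at 6 h for the nuclear lists was added after seeing the data. Library depth was 2306870 to 7900178 counts. Interval and floor values (95%, 3 counts) cover counting error only. Same-numbered libraries deviated with correlations of -0.04 to 0.03, which gives no sign of a pairing by number and cannot exclude one.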

Additional observations from a re-analysis of the deposited data

How the results depend on the processing

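Of the recomputed summary values 237 stayed within the limits set for them and 65 moved, of those of single members 545 stayed, 41 moved and 16 lost their call, and no called value changed sign. The counts of members called moved, out of 14 tested, or 17 with no filter beyond 1 count. In every comparison, the share of all genes called rose too without either tbGFP-positive library at 6 h. A rise among the members in those fits is thus not particular to them. For the other settings named below, the share of all genes called is not given beside the counts of members. Those counts can therefore not be read as a result about the members. For tbGFP-positive against tbGFP-negative cells, the count at 0 h was 1 with only the groups compared. At 6 h it was 3 with upper-quartile factors, 4 with no filter and 0 to 4 with a library left out. At 24 h it was 1 with no filter and 1 with only the groups compared. In tbGFP-negative cells at 24 h against 0 h it was 3 with no filter, 7 with only the groups compared, 3 without both tbGFP-positive libraries at 6 h, and 0 to 3 with a library left out. Against 6 h it was 0 with library totals alone, 5 with no filter, 5 with only the groups compared, 1 with the replicate block, 5 without both tbGFP-positive libraries at 6 h, and 0 to 5 with a library left out. In tbGFP-positive cells at 6 h against 0 h it was 2 with no filter and 0 to 4 with a library left out. Between 24 h and 0 h it was 3 with no filter, 2 without both libraries at 6 h and 0 to 2 with a library left out. Between 24 h and 6 h it was 1 with DESeq2, 2 with no filter and 0 to 4 with a library left out. The interaction at 6 h called 1 with no filter and 0 to 4 with a library left out. Without either tbGFP-positive library at 6 h, chosen after seeing the data, the calls among the 180 nuclear genes numbered 39 to 54 between the fractions at 6 h (16 with all libraries), 3 at 0 h (0) and 2 at 24 h (0). Over time they numbered, in tbGFP-negative cells, 22 at 6 h against 0 h (6), 11 at 24 h against 0 h (2) and 42 to 43 at 24 h against 6 h (16), and in tbGFP-positive cells 36 to 45 (13), 7 (1) and 42 to 44 (16) in the same order. The interaction at 6 h called 14 to 20 of them (0). The causes were not tested, except that fewer libraries enter some of these fits. The replicate block, which the numbers do not justify as a pairing, lost mt-Co1 and changed no other call. Lengths without shared bases swapped 2 ranks, those of mt-Nd4l and mt-Atp8. Few counts or none were found for mt-Atp8, mt-Nd4l and the tRNAs other than mt-Tp, and the part of depth in this was not tested.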
